A study of Mus musculus with 29 samples.

Results

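The genes described here are the Toll-like receptors (TLRs) that signal from the cell surface and the proteins that pair with them. They were taken from the deposited table by symbol, by a rule that has no threshold on measured values, and comprise *Tlr1*, *Tlr2*, *Tlr4*, *Tlr5*, *Tlr6*, *Cd14*, *Ly96*, *Cd180* and *Ly86*, 9 of 23930 genes listed. The study asked how macrophages change in mice that lack the lysosomal ribonuclease RNase T2, and sequenced RNA of sorted macrophages with a kit that amplifies a fixed target of each gene. The *Rnaset2*-/- mice lack both mouse copies (*Rnaset2a*-/-*Rnaset2b*-/-), and the wild-type mice were C57BL/6. No mouse was treated, and the labels give neither age nor sex. From each genotype, Ly6Chi macrophages (CD11b+ Ly6G- SiglecF- NK1.1-) and Ly6Clow macrophages (the same gate, and Fcgr4+) were sorted from the spleen and the liver, and Kupffer cells (KCs, F4/80+ CD11bint Tim4+ PDCA-1low) were sorted from the liver of wild-type mice alone. There were 3 libraries in each of 7 groups, 4 of splenic *Rnaset2*-/- Ly6Clow macrophages and 4 of KCs, 29 libraries in 9 groups. The labels do not say whether replicates came from separate mice, so the p-values below measure the spread between these libraries.

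Surface TLRs recognize components of bacteria outside the cell, unlike the TLRs of endosomes, which sense nucleic acids. TLR4 binds lipopolysaccharide together with MD-2 (encoded by *Ly96*), after CD14 (*Cd14*) has handed the ligand over. RP105 (*Cd180*) resembles the outer part of TLR4, pairs with MD-1 (*Ly86*) and lacks the signaling domain of the TLRs. TLR2 recognizes bacterial lipoproteins as a pair with either TLR1 or TLR6, and TLR5 binds flagellin. KCs line the sinusoids of the liver, where blood from the gut passes over them, and Ly6Chi monocytes are the precursors of Ly6Clow cells.

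Values are RPM (reads of a gene per 1000000 reads of the library), as deposited. The libraries held 11175843 to 21167602 reads, so that 3 reads, the smallest level taken as detected, were 0.142 to 0.268 RPM, a limit that covers counting error only. Depth differed by genotype in splenic Ly6Chi libraries, at 20404155–21167602 reads in *Rnaset2*-/- and 14280906–14415756 reads in wild-type libraries, and its part was not tested. All 6 markers of monocytes and macrophages were detected in every group, with sums of 4220 to 35800 RPM. Markers of KCs (5 of 5 genes in the table) summed to 5300–17100 RPM in KCs, 5660–10800 RPM in hepatic *Rnaset2*-/- Ly6Clow macrophages and 75.1–108 RPM in their wild-type counterparts. KC replicate 3 was at 5300 RPM and the other KC libraries were at 15200–17100 RPM. The study reports that hepatic *Rnaset2*-/- Ly6Clow macrophages lacked Tim4 and Clec4f, which a sum over genes does not show. Markers of Ly6Clow monocytes (5 of 5 genes) summed to 1500–2260 RPM in these *Rnaset2*-/- libraries and 6930–7920 RPM in the wild-type ones. In the other groups the KC sums did not exceed 450 RPM, and *Clec4f*, a defining gene of KCs, was at 0 in 3 of the splenic groups. A list of 9 immediate early and heat shock genes, which respond within minutes to cell dissociation and other stimuli, summed to 16600–24400 RPM in the hepatic wild-type Ly6Chi and Ly6Clow libraries, 2710–4270 RPM in *Rnaset2*-/- Ly6Chi, 813–856 RPM in *Rnaset2*-/- Ly6Clow and 1390–2510 RPM in KCs. In the spleen it summed to 9520–9970 RPM in wild-type and 4910–6600 RPM in *Rnaset2*-/- Ly6Chi libraries, and to 5930–7970 and 6730–7350 RPM in the Ly6Clow libraries. The summed markers of sinusoidal endothelial cells (6 of 6 genes in the table) were also higher in *Rnaset2*-/- libraries. They were at 77.2–110 against 401–2340 RPM in hepatic Ly6Chi and 261–413 against 1380–4200 RPM in hepatic Ly6Clow macrophages. In the spleen they were at 48.2–50.7 against 72.6–161 RPM in Ly6Chi and 271–325 against 1460–2200 RPM in Ly6Clow macrophages. *Stab2*, a gene of this list, had no read in splenic *Rnaset2*-/- Ly6Clow libraries, so that the sum there came from its other genes. The part of this list in the genotype comparisons was not tested. Hepatic *Rnaset2*-/- libraries held at most 0.154 RPM of *Xist* and 150–291 RPM of 4 Y-linked genes, whereas hepatic wild-type Ly6Chi and Ly6Clow libraries held 321–539 RPM of *Xist* and up to 52.0 RPM of the Y-linked genes, so that in the liver an effect of sex and one of genotype cannot be told apart. Splenic *Rnaset2*-/- Ly6Clow libraries ranged from 0.781 to 744 RPM of *Xist* and from 0 to 301 RPM of the Y-linked genes, whereas splenic wild-type Ly6Clow libraries held 476–695 RPM of *Xist* and no Y-linked read. In bulk RNA of sorted cells, fewer cells that express a gene and less RNA per cell cannot be told apart.

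**Figure D1:**
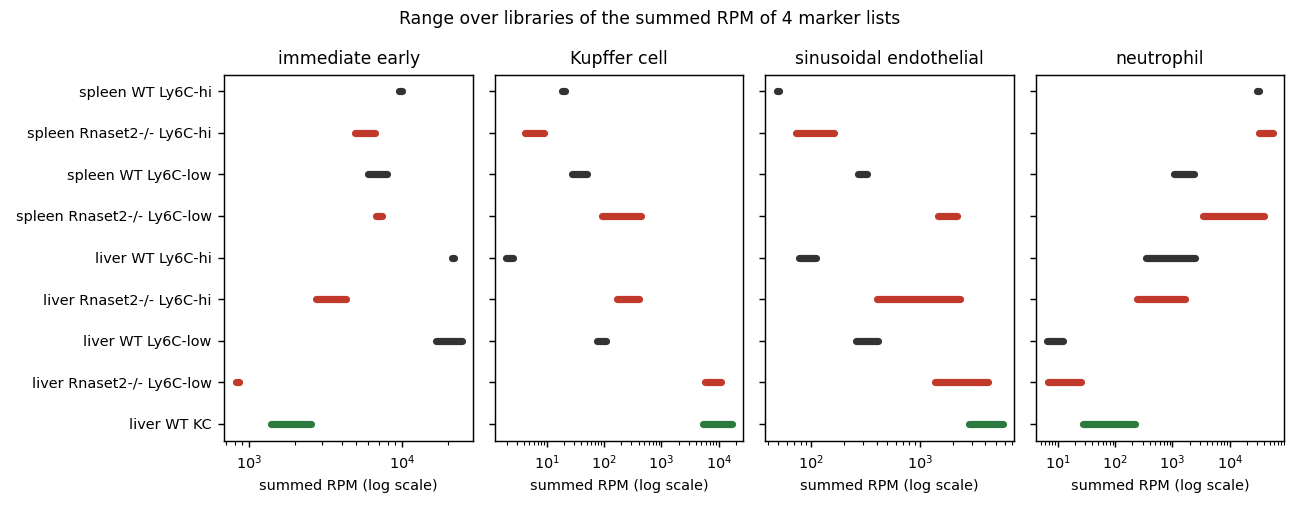
Ranges over libraries of the summed RPM of 4 marker lists (x, log scale) in the 9 groups (y; black, wild type; red, *Rnaset2*-/-; green, KCs). The immediate early sum is 16600–24400 RPM in hepatic wild-type Ly6Chi and Ly6Clow macrophages and 813–856 RPM in hepatic *Rnaset2*-/- Ly6Clow macrophages. The KC sum of the latter, 5660–10800 RPM, lies in the range of KCs only through KC replicate 3 (5300 RPM). The other KC libraries are at 15200–17100 RPM.

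RNase T2 deficiency went with more *Tlr4* in splenic Ly6Chi and hepatic Ly6Clow macrophages and with much less *Tlr2* in both hepatic subsets. Each comparison was made with limma on log2(RPM + 1) after scaling by relative log expression, with Benjamini-Hochberg adjustment over all genes tested. A gene rose or fell if it changed by >1.5-fold with an adjusted p below 0.05, and all 9 genes were tested in every comparison. In splenic Ly6Chi macrophages, 1 of the 9 genes rose (*Tlr4*) and 2 fell (*Cd14* and *Tlr5*), against 9.77% of 10398 tested genes that rose and 12.5% that fell. In splenic Ly6Clow macrophages 0 of 9 changed, where 4.05% of 10295 genes rose and 4.3% fell. Of the 9 genes, 3 had an unadjusted p below 0.05 there, edgeR called 0 and DESeq2 called 1 (*Tlr1*). In hepatic Ly6Chi macrophages 0 rose and 3 fell (*Ly86*, *Tlr2* and *Tlr5*), where 15.7% of 10957 genes rose and 14.9% fell. In hepatic Ly6Clow macrophages 3 rose (*Tlr4*, *Ly96* and *Tlr1*) and 3 fell (*Tlr2*, *Tlr6* and *Tlr5*), where 20.2% of 10808 genes rose and 22.5% fell. The median log2 fold change of the 9 genes was 0.06, -0.04, -0.56 and -0.22 in these comparisons in turn, and that of all tested genes was 0.01 in each. The mean log2 scaling factor of *Rnaset2*-/- libraries minus that of wild-type libraries was 0.32 in hepatic Ly6Chi and -0.12 in splenic Ly6Chi macrophages. Values are divided by these factors, so scaling lowered log2 fold changes in the former and raised them in the latter.

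**Figure D2:**
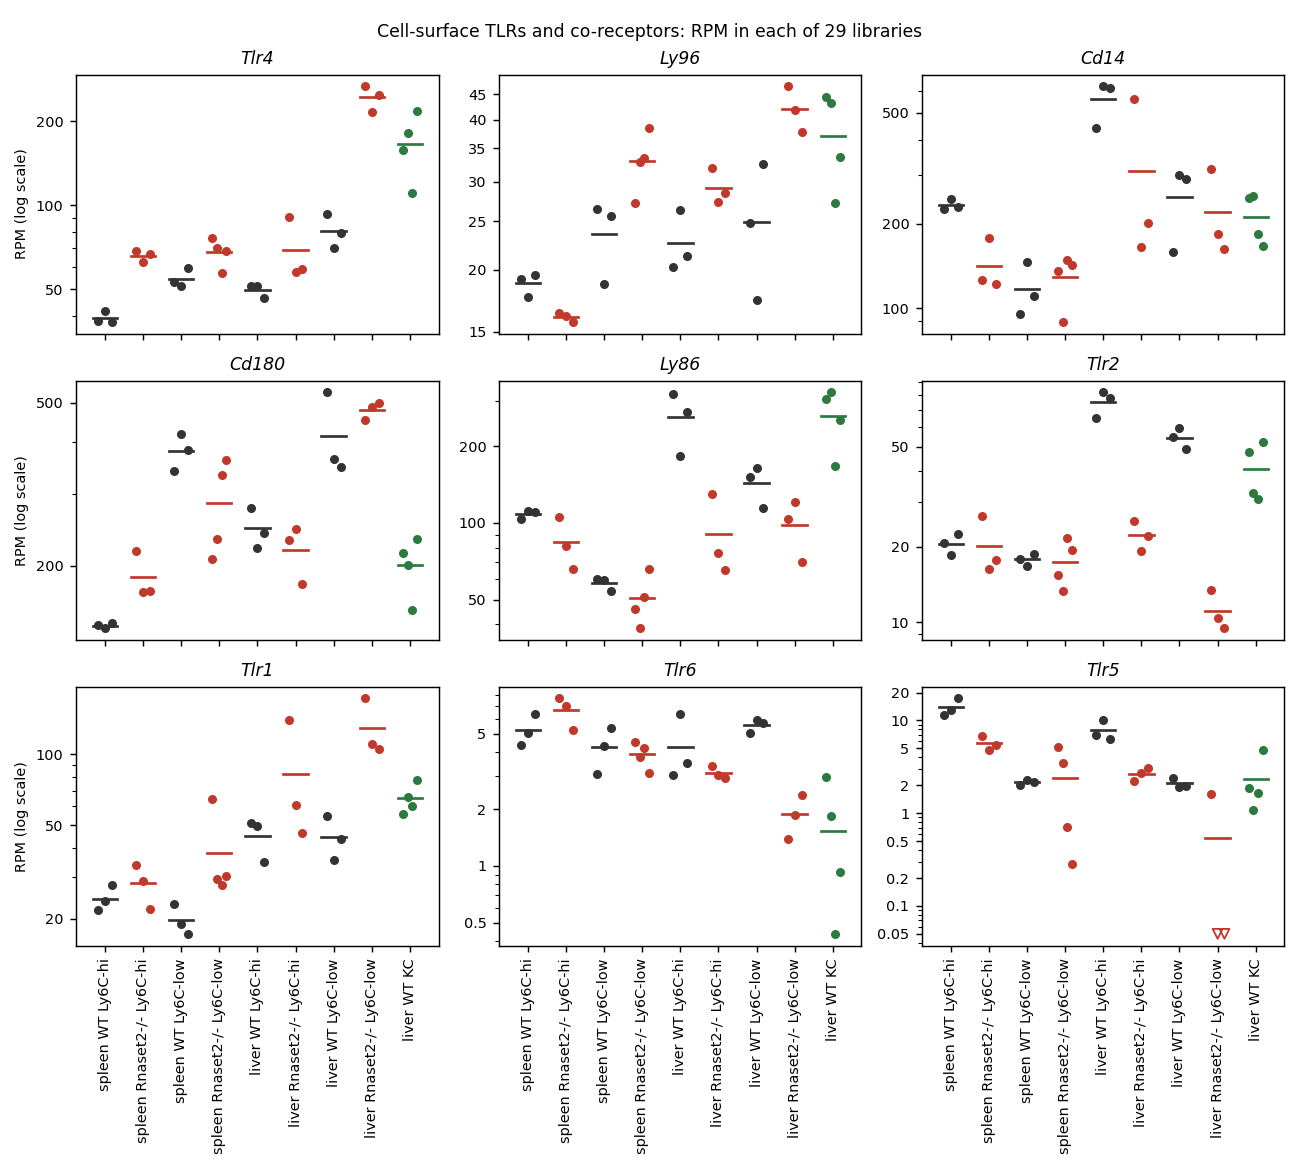
RPM (y, log scale) of the 9 genes in each of 29 libraries (points) with the group mean (bar), by group (x; black, wild type; red, *Rnaset2*-/-; green, KCs). Open triangles are the 2 libraries with no *Tlr5* read, drawn at 0.05 RPM. *Tlr4* is highest in hepatic *Rnaset2*-/- Ly6Clow macrophages and KCs, and *Tlr2* is highest in hepatic wild-type macrophages and lowest in hepatic *Rnaset2*-/- Ly6Clow macrophages.

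*Tlr4*, the lipopolysaccharide receptor, was measured in splenic Ly6Chi macrophages at 38.4, 41.6 and 38.2 RPM in the wild-type libraries and at 68.3, 62.5 and 66.7 RPM in the *Rnaset2*-/- libraries. All *Rnaset2*-/- libraries lay above all wild-type libraries, and the log2 fold change was 0.84 (SE, standard error, 0.0986, adjusted p = 0.00014 from limma). In hepatic Ly6Clow macrophages *Tlr4* was at 93.0, 69.9 and 79.7 RPM in wild-type mice and at 267, 216 and 248 RPM in *Rnaset2*-/- mice. The means were 80.9 ± 11.6 and 244 ± 25.7 RPM (SD, n = 3 each), 3.01-fold apart, and the log2 fold change was 1.54 (SE 0.172, adjusted p = 0.000283 from limma). The increase was called in all 13 alternatives in both comparisons. The immediate early list was lower in the *Rnaset2*-/- libraries of both of these comparisons, and in splenic Ly6Chi macrophages, where *Cd14* and *Tlr5* were also called, its part was not tested. In splenic Ly6Clow macrophages the values were 52.9, 51.2 and 59.5 RPM against 76.5, 70.1, 57.1 and 68.3 RPM, which overlap (log2 fold change 0.32, adjusted p = 0.131 from limma). Hepatic Ly6Chi levels were 51.2, 51.5 and 46.5 RPM against 90.6, 57.5 and 58.8 RPM, and the scaled log2 fold change was 0.12 (adjusted p = 0.743 from limma), 0.43 without scaling and -0.15 without *Rnaset2*-/- replicate 1. KCs held 157, 181, 111 and 217 RPM of *Tlr4*, with the lowest level in replicate 3, which also had the lowest sum of KC markers (5300 RPM against 15200–17100 RPM). Over the 9 groups the order of *Tlr4* ran from hepatic *Rnaset2*-/- Ly6Clow macrophages and KCs, whose libraries overlapped, to splenic wild-type Ly6Chi macrophages (39.4 ± 1.91 RPM, SD, n = 3), a 6.19-fold range. KC markers move with the level of *Tlr4* in the hepatic Ly6Clow comparison, and their part in it was not tested.

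*Ly96*, whose product MD-2 completes the lipopolysaccharide binding site of TLR4, varied least of the 9 genes, 2.61-fold between the highest and the lowest group mean. In hepatic Ly6Clow macrophages it was at 24.7, 17.3 and 32.6 RPM in wild-type mice and at 46.6, 41.8 and 37.8 RPM in *Rnaset2*-/- mice. The groups did not overlap, and the log2 fold change was 0.73 (SE 0.238, adjusted p = 0.0355 from limma). This call was lost in 7 of 13 alternatives, among them leaving out wild-type replicate 1 or 2 (log2 fold change 0.72 and 0.52) or *Rnaset2*-/- replicate 1, 2 or 3 (0.67, 0.78 and 0.79), where the adjusted p was 0.0504 to 0.105. In splenic Ly6Clow macrophages, *Ly96* was at 26.5, 18.7 and 25.6 RPM in wild-type mice and at 27.2, 32.9, 33.5 and 38.5 RPM in *Rnaset2*-/- mice. All 4 *Rnaset2*-/- libraries were above the wild-type libraries, but the log2 fold change of 0.48 had an adjusted p of 0.129 in limma and reached 0.6 (adjusted p = 0.0476 from limma) without *Rnaset2*-/- replicate 1. In splenic Ly6Chi macrophages the levels were 19.1, 17.6 and 19.5 RPM against 16.4, 16.2 and 15.7 RPM, and differed by -0.1 on the log2 scale (adjusted p = 0.57 from limma). Hepatic Ly6Chi levels were 20.2, 26.3 and 21.3 RPM against 31.9, 27.3 and 28.5 RPM, and the scaled log2 fold change was 0.06 (adjusted p = 0.85 from limma). *Tlr4* therefore rose in splenic Ly6Chi macrophages where *Ly96* was not called, and the ratio of their RPM had a median of 4.17 in *Rnaset2*-/- and 2.0 in wild-type libraries.

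*Cd14* encodes the co-receptor that loads lipopolysaccharide onto TLR4 and MD-2. Its wild-type levels were 227, 245 and 230 RPM in splenic Ly6Chi macrophages, and fell to 126, 178 and 122 RPM in *Rnaset2*-/- mice (log2 fold change -0.62, SE 0.148, adjusted p = 0.00799 from limma). The fold change was under 1.5-fold without *Rnaset2*-/- replicate 1 (-0.53) or 3 (-0.51), and the call was also lost in 1 joint fit of all 29 libraries (adjusted p = 0.344 from limma). In hepatic Ly6Chi macrophages, *Cd14* was at 441, 621 and 613 RPM in wild-type mice and at 560, 165 and 202 RPM in *Rnaset2*-/- mice. The first *Rnaset2*-/- library lay within the wild-type range and the other two far below it. That library stood apart in its markers too, with sums of 412 RPM for KC markers (167 and 172 RPM in the other two), 401 RPM for sinusoidal endothelial markers (1940 and 2340 RPM) and 30900 RPM for monocyte and macrophage markers (21200 and 21100 RPM), and the part of these in its levels was not tested. The log2 fold change was -1.37 (SE 0.477, adjusted p = 0.0618 from limma) with that library and -1.97 (adjusted p = 2.39e-05 from limma) without it. In Ly6Clow macrophages the genotypes overlapped, at 95.3–147 against 89.3–148 RPM in the spleen (log2 fold change 0.14, adjusted p = 0.713 from limma) and 159–300 against 163–316 RPM in the liver (-0.22, adjusted p = 0.624 from limma). No neighbours in the order of the 9 groups were apart for *Cd14*.

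*Cd180* and *Ly86* encode the RP105–MD-1 pair. In splenic Ly6Chi macrophages *Cd180* was at 144, 141 and 145 RPM in wild-type mice and at 217, 173 and 174 RPM in *Rnaset2*-/- mice, a log2 fold change of 0.5 (adjusted p = 0.00375 from limma) that was under 1.5-fold. It was not called in the other genotype comparisons, with levels of 341, 419 and 383 against 207, 233, 334 and 362 RPM in splenic Ly6Clow (log2 fold change -0.45), 278, 221 and 241 against 231, 246 and 180 RPM in hepatic Ly6Chi (-0.49), and 530, 364 and 348 against 453, 489 and 498 RPM in hepatic Ly6Clow macrophages (0.2). Without *Rnaset2*-/- replicate 1, the hepatic Ly6Chi difference was -0.6 (adjusted p = 0.0365 from limma). *Ly86* fell in hepatic Ly6Chi macrophages, from 321, 184 and 271 RPM in wild-type mice to 129, 76.0 and 65.2 RPM in *Rnaset2*-/- mice. Every *Rnaset2*-/- library was below every wild-type library, the log2 fold change was -1.85 (SE 0.357, adjusted p = 0.00793 from limma), and all 13 alternatives called it. In hepatic Ly6Clow macrophages *Ly86* was at 151, 164 and 114 RPM against 103, 121 and 70.2 RPM, a log2 fold change of -0.6 (adjusted p = 0.0589 from limma). In the spleen the genotypes overlapped, at 104–111 against 65.7–106 RPM in Ly6Chi and 53.9–60.2 against 38.7–66.2 RPM in Ly6Clow macrophages. The genes of the pair did not follow each other over the 9 group means (Pearson r = -0.21).

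*Tlr2* showed the largest genotype differences of the 9 genes on the log2(RPM + 1) scale, and these were in the liver. In hepatic Ly6Clow macrophages it was at 54.5, 59.3 and 48.9 RPM in wild-type mice and at 13.4, 10.4 and 9.49 RPM in *Rnaset2*-/- mice. The means were 54.2 ± 5.21 and 11.1 ± 2.04 RPM (SD, n = 3 each), 4.88-fold apart, and the log2 fold change was -2.24 (SE 0.195, adjusted p = 9.27e-05 from limma). In hepatic Ly6Chi macrophages it was at 65.1, 82.2 and 77.9 RPM in wild-type mice and at 25.3, 19.2 and 22.0 RPM in *Rnaset2*-/- mice (log2 fold change -2.03, SE 0.208, adjusted p = 0.000771 from limma). In both comparisons the groups were far apart and all 13 alternatives called the fall. The spleen showed no such difference. Its *Tlr2* levels were 20.6, 18.5 and 22.4 against 26.4, 16.3 and 17.7 RPM in Ly6Chi macrophages (log2 fold change 0.06, 95% interval -0.32 to 0.44) and 17.8, 16.7 and 18.8 against 15.4, 13.3, 21.6 and 19.4 RPM in Ly6Clow macrophages (-0.04, 95% interval -0.5 to 0.43). The immediate early list moves with *Tlr2* in the liver, since it is high in the hepatic wild-type groups and low in the *Rnaset2*-/- groups, and its part in the fall was not tested. KCs, with an immediate early sum of 1390–2510 RPM, held 47.6, 32.8, 30.9 and 52.0 RPM of *Tlr2*.

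*Tlr1*, a partner of *Tlr2*, moved the other way in hepatic Ly6Clow macrophages. It rose from 54.9, 35.6 and 43.4 RPM in wild-type mice to 173, 111 and 105 RPM in *Rnaset2*-/- mice, with no overlap (log2 fold change 1.46, SE 0.236, adjusted p = 0.00173 from limma). *Tlr6*, the other partner, fell there from 5.05, 5.93 and 5.73 RPM to 1.39, 1.87 and 2.37 RPM (log2 fold change -1.23, SE 0.248, adjusted p = 0.00485 from limma). Both calls held in all 13 alternatives. The ratio of *Tlr1* to *Tlr6* RPM, which also depends on how well each target is amplified and is read only between groups, had a median of 7.58 in hepatic wild-type and 59.5 in *Rnaset2*-/- Ly6Clow libraries, and of 60.3 in KCs. It ranged over 6.02–10.9, 44.3–125 and 18.9–137 in these groups in turn, and KC libraries held only 5 to 36 reads of *Tlr6*. The ratio of *Tlr1* to *Tlr2* had a median of 0.888, 11.1 and 1.72 in these groups. Hepatic Ly6Chi macrophages held *Tlr1* at 50.8, 49.7 and 34.8 RPM against 140, 61.0 and 46.5 RPM, and the log2 fold change of 0.4 (adjusted p = 0.509 from limma) became -0.12 without *Rnaset2*-/- replicate 1. *Tlr6* was at 3.01, 6.34 and 3.49 RPM against 3.38, 3.01 and 2.92 RPM there (-0.56, adjusted p = 0.181 from limma). In splenic Ly6Clow macrophages, *Tlr1* was at 23.1, 19.0 and 17.2 RPM in wild-type mice and at 64.6, 29.4, 27.9 and 30.4 RPM in *Rnaset2*-/- mice. All 4 *Rnaset2*-/- libraries were above the wild-type libraries and replicate 1 was far above the other three. That library also had the highest sums of neutrophil markers (39700 RPM against 3390–22600 RPM) and KC markers (450 RPM against 90.7–176 RPM) of its group, whose part was not tested. The log2 fold change was 0.84 (adjusted p = 0.0809 from limma) with it and 0.59 (adjusted p = 0.0333 from limma) without it, where the gene was called. *Tlr6* differed little in the spleen, at 4.37–6.37 against 5.27–7.7 RPM in Ly6Chi and 3.08–5.34 against 3.1–4.55 RPM in Ly6Clow macrophages, and *Tlr1* was at 21.6–27.7 against 22.0–33.8 RPM in splenic Ly6Chi macrophages.

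*Tlr1* and *Tlr6* are neighbours on chromosome 5 (GRCm38, 64924679–64933563 and 64952031–64960097, 18467 bases apart), and their sequences are close enough that reads could be assigned to the wrong gene. The longest protein-coding transcripts were 77.0% identical over 2257 aligned bases, with a longest identical run of 229 bases, and 259 of 2926 windows of 100 bases of *Tlr1* (8.9%) were also found in *Tlr6*. The position of the amplified targets was not analysed here, so the split of reads between these genes is uncertain. 

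*Tlr2* and *Tlr1* encode the partners of a pair and moved in opposite directions in hepatic Ly6Clow macrophages, and the 250 bases before their transcription start sites are shown for that reason. The sequences and start sites come from RefSeq (GRCm38.p6), where 6 of the 9 genes had a window that was used here. The GENCODE annotation places the 5′ end of *Tlr2* at 83841767, so that part of its window lies inside the gene there. The windows are chr3:83841609-83841858 on the minus strand for *Tlr2* and chr5:64933559-64933808 on the minus strand for *Tlr1*, each read 5′ to 3′ toward the gene, with motif matches in capitals.
Tlr2: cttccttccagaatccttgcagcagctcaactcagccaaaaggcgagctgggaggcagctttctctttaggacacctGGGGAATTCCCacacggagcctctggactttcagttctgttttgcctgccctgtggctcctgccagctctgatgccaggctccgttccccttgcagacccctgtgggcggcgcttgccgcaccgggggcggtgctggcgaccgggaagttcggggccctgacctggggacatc
Tlr1: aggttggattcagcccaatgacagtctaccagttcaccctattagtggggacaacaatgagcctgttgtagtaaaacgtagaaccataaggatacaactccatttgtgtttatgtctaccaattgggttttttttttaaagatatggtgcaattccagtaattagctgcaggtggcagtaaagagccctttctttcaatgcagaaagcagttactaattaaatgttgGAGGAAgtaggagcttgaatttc

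Of 3 motifs searched on both strands in these windows, *Tlr2* held overlapping matches to the NF-κB consensus at -173 to -163 from the start site, and *Tlr1* held the ETS core bound by PU.1, GAGGAA, at -23 to -18. The NF-κB consensus was in 3.9% of 32851 RefSeq windows, GAGGAA in 23.3%, and the AP-1 motif TGANTCA in 6.7%. None of the 3 motifs was matched in the windows of *Cd180*, *Ly86*, *Tlr6* or *Tlr5*. A second window of *Tlr1* held none either. The windows differed in base composition, with 62.8% G and C in that of *Tlr2* and 39.2% in that of *Tlr1*. A match says only that these letters are present.

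*Tlr5*, the flagellin receptor, was at low levels in all groups and fell in 3 of the 4 genotype comparisons. In splenic Ly6Chi macrophages it was at 11.4, 12.8 and 17.3 RPM in wild-type mice and at 6.85, 4.8 and 5.46 RPM in *Rnaset2*-/- mice (log2 fold change -1.04, SE 0.184, adjusted p = 0.00172 from limma). In hepatic Ly6Chi macrophages it was at 7.02, 10.01 and 6.35 RPM against 2.23, 2.7 and 3.08 RPM (log2 fold change -1.5, SE 0.24, adjusted p = 0.0039 from limma). No library overlapped between genotypes in either subset, but the splenic call was lost in the joint fit of all 29 libraries (-1.03, adjusted p = 0.147 from limma). In hepatic Ly6Clow macrophages it was at 2.4, 1.92 and 1.97 RPM in wild-type mice, against 1.62 RPM in one *Rnaset2*-/- library (21 reads) and 0 reads in the other two, which allows up to 0.233 RPM. The log2 fold change was -1.18 (adjusted p = 0.0419 from limma) and is small because of the added 1, since it was -3.11 with an added 0.1. The call was lost in 8 of 13 alternatives, among them leaving out any wild-type library (-1.13 to -1.22) or *Rnaset2*-/- replicate 2 or 3 (-0.94 and -0.95). In splenic Ly6Clow macrophages it was at 2.03, 2.27 and 2.18 RPM in wild-type mice and at 5.12, 3.48, 0.709 and 0.282 RPM in *Rnaset2*-/- mice. The 2 *Rnaset2*-/- libraries with more *Tlr5* were also those with more neutrophil markers (8 of 8 genes), which summed to 39700 and 22600 RPM in replicates 1 and 2, 4340 and 3390 RPM in replicates 3 and 4 and 1060–2420 RPM in wild-type libraries. Without replicates 1 and 2 together, a choice made after seeing these values, the log2 fold change was -1.06 (adjusted p = 0.0173 from limma), and -0.19 with them (adjusted p = 0.828 from limma). Neutrophil markers were also high in splenic Ly6Chi libraries, at 30400–32700 RPM in wild-type and 32600–57300 RPM in *Rnaset2*-/- mice, where *Tlr5* was lower in the latter. Their part in the *Tlr5* level was not tested.

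**Figure D3:**
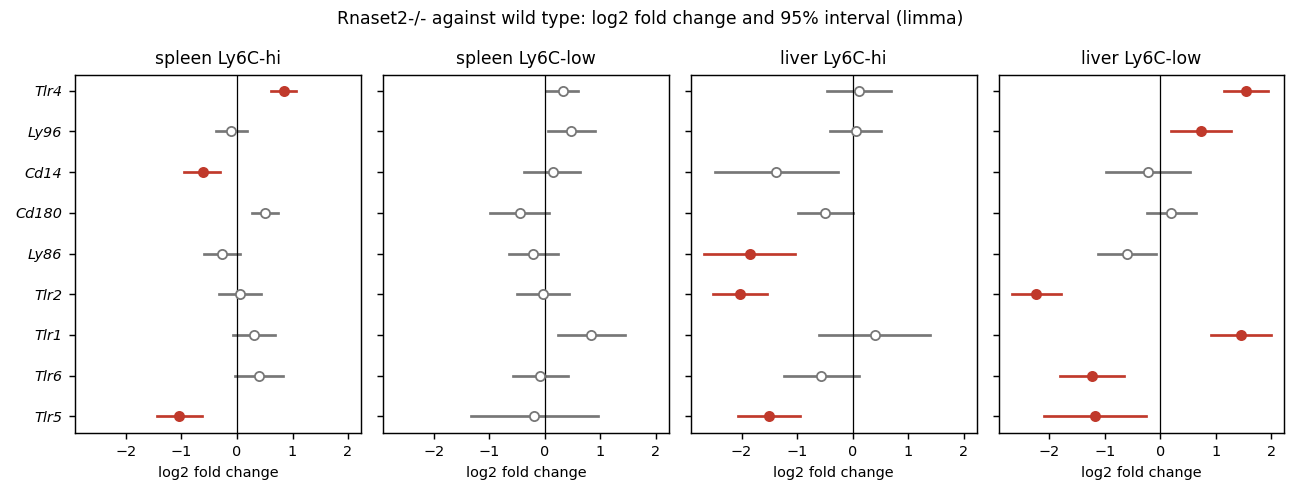
Log2 fold change of *Rnaset2*-/- against wild type (x, points) with the 95% interval (lines) from limma for the 9 genes (y) in 4 comparisons. Filled red points passed >1.5-fold with an adjusted p below 0.05. *Tlr2* is at -2.03 and -2.24 in the hepatic subsets and at 0.06 and -0.04 in the splenic ones, and *Tlr4* is at 1.54 in hepatic Ly6Clow macrophages.

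The effect of genotype differed between the organs for 5 of these genes, as tested by the interaction of organ and genotype in limma (liver effect minus spleen effect). In Ly6Chi macrophages 0 genes were higher and 3 were lower in the liver (*Tlr2*, *Ly86* and *Cd180*), against 17.6% of 11398 genes higher and 16% lower. The difference was -2.05 for *Tlr2* (adjusted p = 0.000189), -1.55 for *Ly86* (adjusted p = 0.0133) and -0.96 for *Cd180* (adjusted p = 0.00761), and that of *Cd180* was -0.56 (adjusted p = 0.0577) without scaling. For *Tlr4* it was -0.69 (adjusted p = 0.0704), and -0.97 (adjusted p = 0.000262) without hepatic *Rnaset2*-/- replicate 1. Leaving out the same library, the difference of *Cd14* moved from -0.71 to -1.32 (adjusted p = 0.000934) and that of *Tlr6* from -0.92 to -1.03 (adjusted p = 0.0303), and both were then called. *Tlr6* was also called without splenic *Rnaset2*-/- replicate 3 (-1.08) and without hepatic wild-type replicate 1 (-1.11), and DESeq2 called it as well (-1.19, adjusted p = 0.04). In Ly6Clow macrophages 1 gene was higher (*Tlr4*, 1.24, adjusted p = 0.000658) and 2 were lower in the liver (*Tlr2*, -2.19, adjusted p = 0.000167, and *Tlr6*, -1.15, adjusted p = 0.0164), against 12.1% of 11308 genes higher and 14.7% lower. All 20 alternatives called these 3 differences. That of *Tlr1* was 0.64 (adjusted p = 0.231) and became 0.88 (adjusted p = 0.0295) without splenic *Rnaset2*-/- replicate 1.

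Between the subsets of wild-type mice, Ly6Clow macrophages held less *Cd14*, *Ly86* and *Tlr5* than Ly6Chi macrophages in both organs. In the spleen 2 of the 9 genes were higher in Ly6Clow macrophages (*Cd180* and *Tlr4*) and 3 were lower, against 13.8% of 10521 genes higher and 19.8% lower. *Cd180* differed most upward, from 141–145 RPM to 341–419 RPM (log2 fold change 1.55, SE 0.0927, adjusted p = 4.61e-07 from limma), and *Tlr5* most downward, from 11.4–17.3 RPM to 2.03–2.27 RPM (-2.1, SE 0.174, adjusted p = 4.48e-06 from limma). *Tlr4* was 0.6 higher on the log2 scale (adjusted p = 0.000756 from limma), which was under 1.5-fold without Ly6Chi replicate 3 (0.57), without Ly6Clow replicate 3 (0.54) or without scaling (0.46). *Cd14* was lower by a log2 fold change of -0.86 and *Ly86* of -0.75 (adjusted p = 0.000542 and 5.81e-05 from limma), and both calls were lost in the joint fit of all 29 libraries (adjusted p = 0.0915 and 0.0613). *Ly96* was 0.44 higher (adjusted p = 0.0278 from limma) and 0.6 higher without Ly6Clow replicate 2, where it was called. In the liver limma called 0 genes higher and 3 lower, where edgeR called 4 genes in all and DESeq2 5, and 6 had an unadjusted p below 0.05 in limma, against 5.24% of 11688 genes higher and 4.84% lower. *Cd14* went from 441–621 RPM in Ly6Chi to 159–300 RPM in Ly6Clow macrophages (log2 fold change -1.31, adjusted p = 0.01 from limma) and *Tlr5* from 6.35–10.01 to 1.92–2.4 RPM (-1.57, adjusted p = 0.00353 from limma). *Ly86* was lower by -0.94 (adjusted p = 0.041 from limma), a call lost in 7 of 13 alternatives, with -0.73 to -0.99 where Ly6Chi replicate 1 or 3 or Ly6Clow replicate 1 or 3 was left out. *Tlr4* was 0.57 higher (adjusted p = 0.0554 from limma) and *Cd180* 0.61 higher (adjusted p = 0.0936 from limma). *Tlr4* was called higher by edgeR (0.6, adjusted p = 0.0493) and DESeq2 (0.6, adjusted p = 0.00559), without scaling (0.68, adjusted p = 0.0219 from limma) and without Ly6Clow replicate 2 (0.68, adjusted p = 0.0478 from limma). *Cd180* was called higher by DESeq2 (0.64, adjusted p = 0.0188), without scaling (0.72, adjusted p = 0.04 from limma) and with the replicate block (0.61, adjusted p = 0.0471 from limma). Neutrophil markers summed to 30400–32700 RPM in splenic wild-type Ly6Chi and 1060–2420 RPM in Ly6Clow libraries, and to 342–2430 and 6.46–12.1 RPM in the liver. Sinusoidal endothelial markers went the other way, at 48.2–50.7 and 271–325 RPM in the spleen and 77.2–110 and 261–413 RPM in the liver. The part of these lists in the subset differences was not tested.

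KCs were compared with the hepatic Ly6Clow macrophages of both genotypes. Against wild-type Ly6Clow macrophages, 0 of the 9 genes were higher in KCs and 4 were lower (*Cd180*, *Tlr6*, *Tlr2* and *Cd14*), where 26% of 12515 genes were higher and 24% lower. *Cd180* was at 215, 201, 156 and 233 RPM in KCs and 530, 364 and 348 RPM in Ly6Clow macrophages (log2 fold change -1.62, SE 0.192, adjusted p = 5.47e-05 from limma). *Tlr6* was at 2.95, 1.83, 0.437 and 0.923 RPM against 5.05–5.93 RPM (-1.9, SE 0.352, adjusted p = 0.00109 from limma). The mean log2 scaling factor was 0.59 higher in KCs than in wild-type Ly6Clow libraries, so that scaling lowered log2 fold changes here. The call of *Tlr2* (-1.01, adjusted p = 0.00298 from limma) was lost without scaling (-0.43). Without scaling, *Tlr4* went from 0.41 (adjusted p = 0.139 from limma) to a call at 1 and *Ly86* from 0.26 to a call at 0.84. *Tlr4* was also called without KC replicate 3 (0.61, adjusted p = 0.012 from limma). *Cd14* (-0.79, adjusted p = 0.0238 from limma) was lost in 7 of 14 alternatives, among them those without Ly6Clow replicate 2 (-0.61) or 3 (-0.66) or KC replicate 4 (-0.68). Markers of hepatocytes (3 of 4 listed genes in the table) summed to 1030–3550 RPM and those of sinusoidal endothelial cells to 2850–5750 RPM in KC libraries, against 45.5–90.2 and 261–413 RPM in wild-type Ly6Clow macrophages, and their part in these differences was not tested.

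In hepatic *Rnaset2*-/- Ly6Clow macrophages, 4 genes were higher than in KCs (*Cd180*, *Tlr1*, *Tlr4* and *Ly96*) and 2 were lower (*Tlr2* and *Ly86*), where 19.4% of 12127 genes were higher and 26.3% lower. *Cd180* was at 453–498 RPM against 156–233 RPM (log2 fold change 1.79, SE 0.193, adjusted p = 0.000168 from limma), *Tlr1* at 105–173 against 55.7–78.1 RPM (1.49, adjusted p = 0.000686 from limma), and *Tlr2* at 9.49–13.4 against 30.9–52.0 RPM (-1.27, adjusted p = 0.0034 from limma). These 3 genes did not overlap between the groups and were called in all 14 alternatives. *Tlr4* (1.11, adjusted p = 0.00539 from limma) and *Ly96* (0.72, adjusted p = 0.0207 from limma) overlapped as RPM and were not called without scaling, at 0.58 and 0.2. The mean log2 scaling factor of *Rnaset2*-/- libraries minus that of KCs was -0.53, so that scaling raised log2 fold changes here. *Ly96* was also lost without *Rnaset2*-/- replicate 1 (0.68) or KC replicate 3 (0.56), and *Ly86* (-0.88, adjusted p = 0.0195 from limma) without *Rnaset2*-/- replicate 3 (-0.7) or KC replicate 1 (-0.8) or 2 (-0.77). *Tlr5* was not called (-0.97, adjusted p = 0.123 from limma), and was called without *Rnaset2*-/- replicate 1 (-1.51, adjusted p = 0.0238 from limma). Hepatocyte markers summed to 1030–3550 RPM in KCs and 9.34–52.4 RPM in these *Rnaset2*-/- libraries, and B cell markers (5 of 6 listed genes in the table) to 438–832 and 105–372 RPM. Ly6Clow monocyte markers went the other way, at 387–556 and 1500–2260 RPM. The part of these lists in the differences was not tested. KC libraries held 647–949 RPM of *Xist* and no Y-linked read, and the hepatic *Rnaset2*-/- Ly6Clow libraries held no *Xist* and 199–291 RPM of the Y-linked genes. Effects of sex, genotype and cell type therefore cannot be told apart between these groups. The KC comparisons share the KC libraries with each other, and the first shares the hepatic wild-type Ly6Clow libraries with the genotype comparison.

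The genes that carry the signal of these receptors were examined as 3 lists. Their counts stand against 9.77% of all tested genes that rose and 12.5% that fell in splenic Ly6Chi, 4.05% and 4.3% in splenic Ly6Clow, 15.7% and 14.9% in hepatic Ly6Chi, and 20.2% and 22.5% in hepatic Ly6Clow macrophages. Among 15 adaptors and kinases, 1 rose and 1 fell in splenic Ly6Chi macrophages of *Rnaset2*-/- mice, 0 rose and 1 fell in splenic Ly6Clow, 1 rose and 4 fell in hepatic Ly6Chi, and 1 rose and 2 fell in hepatic Ly6Clow macrophages, where both shares are below those of all genes. *Irak2*, a kinase downstream of MyD88, fell in hepatic Ly6Clow macrophages from 171 ± 35.2 to 64.4 ± 15.7 RPM (SD, n = 3 each; log2 fold change -1.45, adjusted p = 0.00181 from limma) and in hepatic Ly6Chi macrophages (-1.12, adjusted p = 0.0128 from limma), a call lost without *Rnaset2*-/- replicate 2. *Traf6*, a ubiquitin ligase that IRAKs engage, fell by 0.92 on the log2 scale in both hepatic subsets (adjusted p = 0.00719 and 0.00576 from limma), and the Ly6Chi call was lost without scaling. *Pik3ap1*, an adaptor that links TLRs to PI3K, rose in splenic Ly6Chi macrophages from 190 ± 5.9 to 488 ± 21.0 RPM (SD, n = 3 each; 1.47, adjusted p = 2.87e-06 from limma) and in hepatic Ly6Clow macrophages (0.95, adjusted p = 0.00507 from limma). *Irak1* fell in hepatic Ly6Chi macrophages (-0.85, adjusted p = 0.0468 from limma), a call lost in 7 of 13 alternatives, including those that left out replicate 1 or 3 of the wild type, or 2 or 3 of *Rnaset2*-/-.

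Of 9 negative regulators listed, 7 were tested, and 2 rose and 3 fell in splenic Ly6Chi, 2 rose and 0 fell in splenic Ly6Clow, 2 rose and 2 fell in hepatic Ly6Chi, and 1 rose and 4 fell in hepatic Ly6Clow macrophages, against the shares of all genes given above. *Irak3*, which encodes the inhibitory kinase homologue IRAK-M, rose in all 4 comparisons. It went from 116 ± 4.46 to 251 ± 44.7 RPM in splenic Ly6Chi (SD, n = 3 each), from 172 ± 19.6 (n = 3) to 432 ± 47.5 RPM (n = 4) in splenic Ly6Clow, from 109 ± 11.7 to 220 ± 49.3 RPM in hepatic Ly6Chi, and from 120 ± 10.6 to 442 ± 2.54 RPM in hepatic Ly6Clow macrophages. The log2 fold changes were 1.2, 1.34, 0.67 and 1.84 (adjusted p = 9.65e-05, 0.0012, 0.0374 and 6.04e-05 from limma). The hepatic Ly6Chi call was lost in 6 of 13 alternatives, among them those without any one wild-type library or without *Rnaset2*-/- replicate 2. *Dusp1*, a phosphatase of MAP kinases, and *Tnfaip3*, which encodes the ubiquitin-editing enzyme A20, fell in 3 comparisons. *Dusp1* changed by -1.24, -3.12 and -4.81 and *Tnfaip3* by -1.26, -2.64 and -2.59 in splenic Ly6Chi, hepatic Ly6Chi and hepatic Ly6Clow macrophages, in the same direction as the immediate early list, whose part was not tested. *Il1rl1*, which encodes the IL-33 receptor ST2, fell in splenic Ly6Chi (-0.74) and hepatic Ly6Clow macrophages (-1.78), at group means of at most 3.81 RPM. The splenic call was lost without wild-type replicate 1 or 3 and in the joint fit of all 29 libraries.

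Of 6 chaperones and accessory proteins, 1 rose in splenic Ly6Chi, 1 fell in splenic Ly6Clow, 0 changed in hepatic Ly6Chi, and 2 rose and 1 fell in hepatic Ly6Clow macrophages, where 20.2% of all genes rose and 22.5% fell, so that a list of 6 genes does not stand apart by these counts. *Cd36*, a scavenger receptor that helps TLR2 with TLR6 detect lipids, fell in hepatic Ly6Clow macrophages from 413 ± 21.8 to 26.5 ± 9.66 RPM (SD, n = 3 each; log2 fold change -4.02, adjusted p = 4.05e-05 from limma). It also fell in splenic Ly6Clow macrophages, from 563 ± 41.3 (n = 3) to 126 ± 59.7 RPM (n = 4; -2.32, adjusted p = 0.0199 from limma), a call lost when any one wild-type library was left out. *Hsp90b1*, which encodes the chaperone gp96 needed for most TLRs to reach the cell surface, rose in hepatic Ly6Clow macrophages from 891 ± 61.1 to 2020 ± 405 RPM (SD, n = 3 each; 1.12, adjusted p = 0.00491 from limma). *Unc93b1*, whose product escorts endosomal TLRs, rose there from 1110 ± 151 to 3610 ± 768 RPM (SD, n = 3 each; 1.65, adjusted p = 0.00103 from limma). *Lbp*, which encodes the lipopolysaccharide-binding protein that feeds CD14, rose in splenic Ly6Chi macrophages (1.37, adjusted p = 8.35e-05 from limma), a call lost in the joint fit of all 29 libraries.

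**Figure D4:**
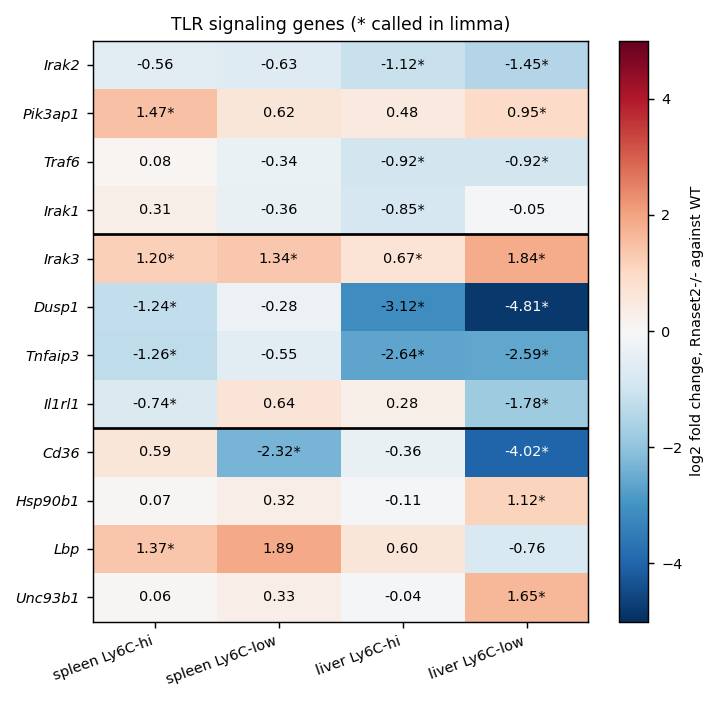
Log2 fold change of *Rnaset2*-/- against wild type from limma (color and number) for 12 TLR signaling genes (rows; adaptors and kinases, negative regulators, chaperones and accessory proteins, divided by lines) in 4 comparisons (columns). An asterisk marks >1.5-fold with an adjusted p below 0.05. *Irak3* carries one in all 4 columns, and *Dusp1* reaches -4.81 in hepatic Ly6Clow macrophages.

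Over the 9 group means of log2(RPM + 1), *Tlr4* was most alike with *Tlr1* (Pearson r = 0.81) and *Ly96* (0.79) among the other 8 genes, and *Ly86* with *Tlr2* (0.79) and *Cd14* (0.76). *Tlr1* and *Tlr6* ran opposite (-0.74), as did *Ly96* and *Tlr6* (-0.88), and *Tlr1* and *Tlr2* showed no relation (-0.05). Among 9677 genes that reached 10 RPM in at least 1 group, the 3 most alike with *Tlr4* were *Creg1* (0.971), *Cxcl14* (0.967) and *Vmp1* (0.966). *Cd180* was most alike with *Gngt2* (0.915), *E230029C05Rik* (0.914) and *Itgax* (0.912), which encodes CD11c. *Cd14* was most alike with *Prdm1* (0.942), *Cxcl10* (0.912) and *Anxa4* (0.91), *Ly96* with *Blvrb*, *Dst* and *Pltp* (0.958 to 0.972), and *Ly86* with *Gcsh*, *Lrp12* and *Pdcd2l* (0.956 to 0.975). *Tlr2* was most alike with *Slc12a9*, *Rpl32* and *Kdm2a* (0.955 to 0.962), *Tlr1* with *Lap3*, *Car13* and *Myo1e* (0.954 to 0.975), *Tlr6* with *Msrb1*, *Plcg2* and *Gsr* (0.948 to 0.952), and *Tlr5* with *Map3k6*, *Plcb1* and *Rab36* (0.978 to 0.987). These values describe 9 group means that share organs, subsets and genotypes, and the highest of so many correlations is high by selection.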

How the data were processed

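Libraries of sorted macrophage RNA were made with the mouse Ion AmpliSeq transcriptome kit and run on an Ion Proton. The authors obtained gene counts from the AmpliSeqRNA plug-in and deposited 1 table of RPM per gene and library. The submitters' processing notes name the mm10 build. In each of the 29 columns, 100.0% of values were whole reads within 0.1 reads, from which reads were recovered.

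Pairs of groups were compared with limma 3.58.1 in R 4.3.3 on log2(RPM divided by a relative log expression factor + 1), two-sided, keeping genes that reached 1 RPM in 3 or more of the compared libraries. Organ and genotype interactions were fitted over 4 groups. Genes were called at >1.5-fold with an adjusted p below 0.05 (Benjamini-Hochberg over all tested genes). The step was tested on simulated data.

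Named genes were the 9 members, at most 4 genes of each signaling list (those called in most of the 4 genotype comparisons, ties by symbol) and the 3 genes most alike with each member. Members and lists were chosen with earlier results of these data known. The alternatives were an added value of 0.1, no filter, RPM without scaling, a block for the replicate number, 1 joint fit of the 29 libraries, edgeR 4.0.16 and DESeq2 1.42.0 on recovered reads, and leaving out each library. No main fit paired libraries by replicate number. Between hepatic *Rnaset2*-/- Ly6Clow macrophages and KCs, which differ in genotype, deviations of same-numbered libraries correlated at 0.13, 0.11 and 0.35. The labels give no source of such a pairing, and the block changed no call of the 9 genes there. Coordinates and transcripts come from GENCODE vM21. *Rnaset2a*, *Rnaset2b* and the Ly6c genes were not analysed here, and the knockout was not checked.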

Additional observations from a re-analysis of the deposited data

Results flagged for a closer look

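In splenic *Rnaset2*-/- Ly6Clow macrophages, *Tlr1* was at 64.6 RPM in replicate 1 and at 27.9–30.4 RPM in the other 3 libraries. Replicate 1 also had the highest neutrophil marker sum (39700 RPM against 3390–22600 RPM) and KC marker sum (450 RPM against 90.7–176 RPM) of the group, and their part was not tested. The gap to the nearest library was 0.932 of the whole range, above Dixon's 95% critical value for 4 libraries. It was the single value past that limit among 18 tests (9 genes in 2 groups of 4 libraries), and chance alone passes it in about 5% of groups.

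The effect of genotype differed between liver and spleen by the limma interaction in 6 of 18 tests. Over all genes, 17.6% were higher and 16% lower in the Ly6Chi interaction and 12.1% and 14.7% in the Ly6Clow interaction, so that the count is near that of all genes and says nothing particular of these 9. In Ly6Chi macrophages the difference (liver minus spleen, log2) was -0.96 for *Cd180*, -1.55 for *Ly86* and -2.05 for *Tlr2*. In Ly6Clow macrophages it was 1.24 for *Tlr4*, -2.19 for *Tlr2* and -1.15 for *Tlr6*. In the liver genotype cannot be told apart from sex, and the immediate early list differs between the hepatic genotypes, at 16600–24400 RPM in wild-type and 813–4270 RPM in *Rnaset2*-/- libraries.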

How the results depend on the processing

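Of 36 calls of the 9 genes over 10 comparisons, 22 held in every alternative and 14 were lost in at least 1. No call changed direction. Of 1323 values of the 9 genes under alternatives, 1205 kept their direction and their side of the threshold. Replicates are few and 2 genes, *Tlr5* and *Tlr6*, were at a few RPM.

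Counts over all genes moved most without scaling, to 3148 higher and 841 lower for the Ly6Chi interaction, 977 and 5156 for *Rnaset2*-/- Ly6Clow against KCs, 2661 and 905 for hepatic Ly6Chi by genotype, and 5477 and 1385 for KCs against wild-type Ly6Clow macrophages. One fit of all libraries gave 2585 lower for the Ly6Clow interaction, 3074 lower in hepatic Ly6Chi, 3913 lower in hepatic Ly6Clow, 457 higher and 688 lower in splenic Ly6Chi, and 673 higher in splenic Ly6Clow macrophages. Without a filter, 407 genes were higher in hepatic Ly6Clow than Ly6Chi macrophages of wild-type mice, and 250 were higher and 265 lower in splenic Ly6Clow macrophages by genotype, where DESeq2 gave 907 and 693. The cause was not tested.

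With each library left out in turn, the counts higher and lower ranged from 857 to 1243 and 875 to 1378 in splenic Ly6Chi, 98 to 589 and 47 to 532 in splenic Ly6Clow, 672 to 1847 and 898 to 2033 in hepatic Ly6Chi, and 1570 to 2102 and 1511 to 2411 in hepatic Ly6Clow macrophages by genotype. They ranged from 1342 to 1476 and 1694 to 2143 between splenic and 274 to 500 and 272 to 491 between hepatic wild-type subsets, 2672 to 3183 and 2522 to 2987 for KCs against wild-type and 1963 to 2372 and 2295 to 2990 for *Rnaset2*-/- Ly6Clow macrophages against KCs. For the interactions they ranged from 1560 to 2330 and 1462 to 2255 in Ly6Chi, and 1006 to 1532 and 1135 to 1882 in Ly6Clow macrophages.

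The replicate numbers have no stated meaning. With the replicate block, elsewhere than in the comparison named in the methods, *Ly86* was called (-0.6) and *Ly96* lost (0.73, adjusted p = 0.053 from limma) in hepatic Ly6Clow macrophages by genotype, *Cd180* was called (0.61) and *Ly86* lost between hepatic wild-type subsets, and *Cd14* was lost in KCs (-0.69). It changed no other call of the 9 genes.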
